A study of Mus musculus with 2 samples.

Results

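The slit diaphragm is the cell junction that spans the gap between neighbouring podocyte foot processes, the last layer of the kidney filter. The genes described here are 8 of its components and partners: Nphs1, Kirrel, Fat1, Magi2, Tjp1, Cd2ap, Plce1 and Trpc6. They are picked out by symbol, and each matched 1 of the 31058 entries of the feature list, so all 8 were present in both count matrices. The proteins fall into 4 roles: adhesion molecules that bridge the gap (Nphs1, Kirrel, Fat1), scaffolds under the membrane (Magi2, Tjp1), an adaptor to signalling and actin (Cd2ap), and enzymes or channels that act through phospholipid and calcium signals (Plce1, Trpc6). Inherited loss of several of them in humans causes protein to leak into urine, and some, such as Tjp1 and Cd2ap, are used by many cell types outside the kidney.

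The counts come from glomerular cells of healthy C57Bl/6 mice with the genotype Pax2.rtTA;TetO.Cre;R26.Confetti, in which doxycycline switches on Cre in cells that use the Pax2 promoter and Cre then recombines a fluorescent reporter. Mice received doxycycline aged 19 days and were killed aged 30 days. This genotype and treatment are shared by both groups, 1 library titled female and 1 titled male, and the labels do not say whether a library came from 1 animal or from pooled animals. With 1 library a group no test between groups was possible, so values are given for each library with exact 95% intervals that cover counting error only. The library labelled female had 0.682 CPM of Xist and 132 CPM of Ddx3y, and the library labelled male had 1593 CPM of Xist and no UMI of Ddx3y. The titles thus go against the sex-linked transcripts in both libraries, the deposited file names carry the opposite sex from the titles, and a direction between them is a direction between libraries as labelled.

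After filtering, 4909 cells remained from the library labelled female and 4442 from the library labelled male, with medians of 10672 and 9616 UMIs (unique molecular identifiers, each 1 captured transcript). Levels are CPM, the UMIs of a gene per 1000000 UMIs summed over all cells of a class in a library. The members were kept out of the genes used for clustering and of the marker lists, so that cell types were named without them. Of 18 clusters, 15 were named, and these gave 7 classes. Podocyte-like cells numbered 4135 and 3717, mesangial-like cells 221 and 167, glomerular endothelial-like cells 124 and 101, parietal epithelial-like cells 82 and 56, tubule-like cells 62 and 104 (52 and 82 thick ascending limb-like, 10 and 22 proximal tubule-like), smooth muscle or renin-like cells 49 and 72, and immune-like cells 17 and 55. At 50 CPM or more in both libraries were all 10 podocyte markers in podocyte-like cells, all 8 mesangial markers in mesangial-like cells and all 8 glomerular endothelial markers in glomerular endothelial-like cells. Mesangial-like cells also had 8 and 6 of the 8 glomerular endothelial markers at that level. These summed to 2363 and 1483 CPM, against 16318 and 13485 CPM in glomerular endothelial-like cells. Only podocyte RNA is allowed for below, and endothelial RNA in mesangial-like cells is not. In parietal epithelial-like cells 8 and 7 of 9 parietal markers reached that level, and in tubule-like cells 6 and 5 of 6 thick ascending limb markers did. Thick ascending limb-like cells had all 6 of these in both libraries (16059 and 14339 CPM summed). They also had 5 of 5 distal convoluted tubule markers in both (4138 and 6245 CPM summed). Of 6 collecting duct principal markers 2 and 4 reached that level there, so the name may cover other distal tubule cells. The summed podocyte markers were at 17867 and 18502 CPM in podocyte-like cells, 2729 and 2131 CPM in tubule-like cells and 824 and 645 CPM in parietal epithelial-like cells, with none of the 10 at 0. The libraries share 10 barcodes, 7 of them kept cells. The 3 unnamed clusters are described after the classes.

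**Figure D1:**
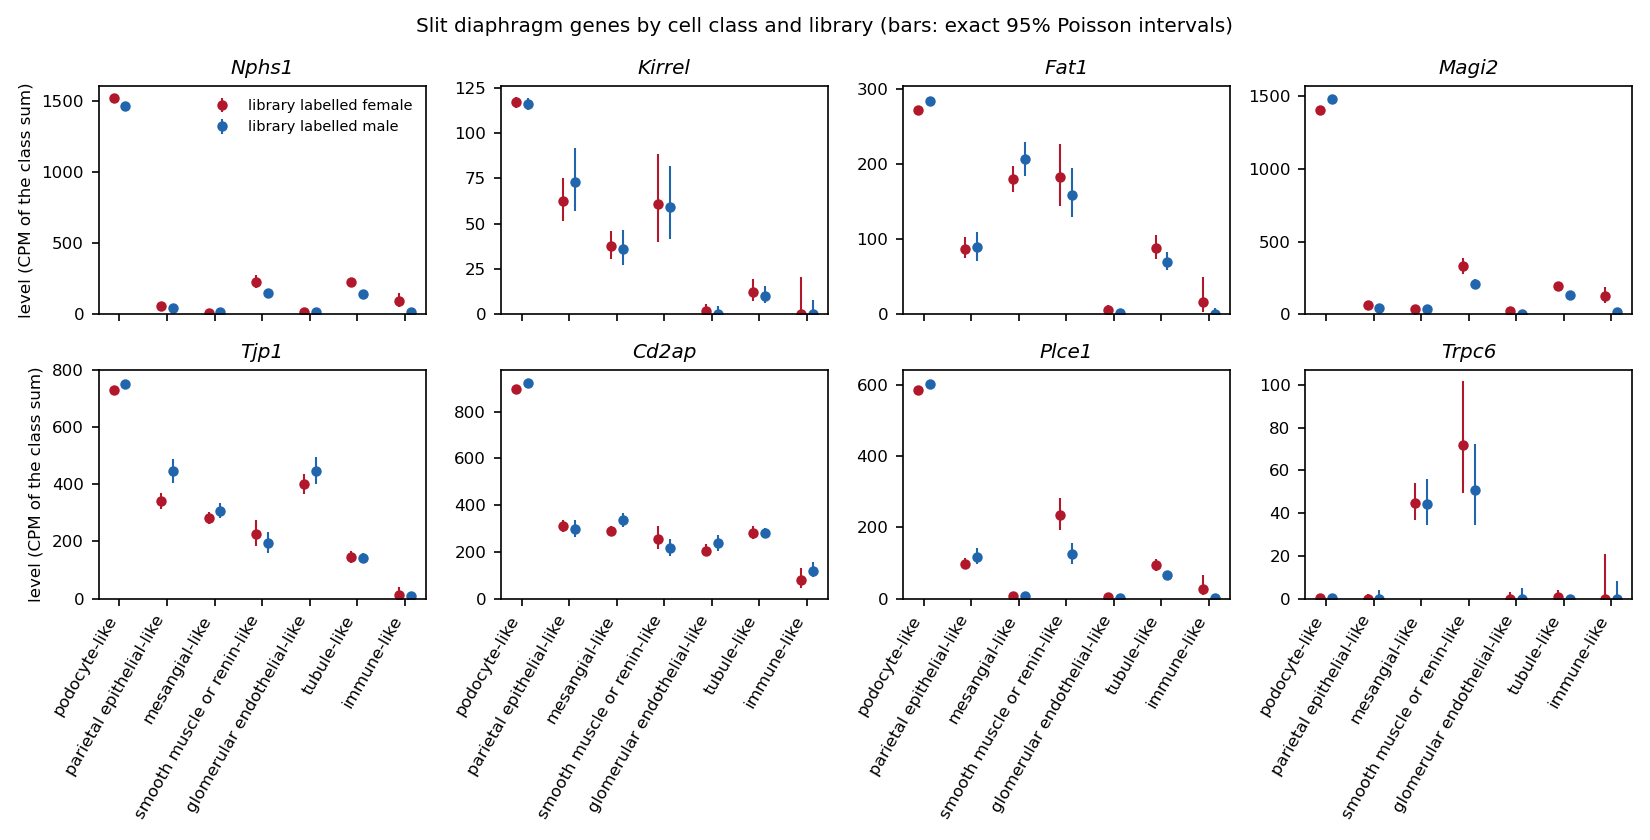
Level of each member (CPM of the class sum, linear axis from 0) in the 7 named classes. Points are the libraries labelled female and male, bars exact 95% Poisson intervals; 7 members peak in podocyte-like cells and Trpc6 in smooth muscle or renin-like and mesangial-like cells.

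In both libraries 7 of the 8 members had their highest level in podocyte-like cells, against 11.8% of the 9694 genes that reached 20 CPM in a class. The median log2 ratio of the podocyte-like level over the highest other class was 1.13 over the members and -0.76 over all genes. The exception was Trpc6, which was almost absent from podocyte-like cells and present in mesangial-like and smooth muscle or renin-like cells. The bases before the starts of 4 members that differ in this pattern are shown from RefSeq (GRCm38.p6, coordinates from the same build), in lower case with each CG dinucleotide, the usual site of DNA methylation, in capitals. Magi2 (chr5:19226796-19227035, plus strand) stands for the members with a large excess in podocyte-like cells, 4.24-fold and 7.21-fold over the highest other class. Tjp1 stands for those shared with many classes (chr7:65371245-65371494, minus strand). Fat1 stands for those shared with mesangial-like cells (chr8:44949958-44950195, plus strand) and Trpc6 for the exception (chr9:8543892-8544141, plus strand). Stretches over annotated exons were left out, and the RefSeq starts of Tjp1 and Fat1 lie inside the longer GENCODE gene spans. The span of Fat1 starts at 44935447, and the stretch shown runs up to an annotated Fat1 exon. It may therefore be intron, and its CG count need not describe a promoter.
Magi2: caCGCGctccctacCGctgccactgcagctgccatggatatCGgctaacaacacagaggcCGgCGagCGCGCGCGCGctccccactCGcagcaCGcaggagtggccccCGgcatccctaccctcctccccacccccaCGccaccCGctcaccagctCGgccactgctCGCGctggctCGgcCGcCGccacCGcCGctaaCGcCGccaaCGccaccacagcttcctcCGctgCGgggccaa
Tjp1: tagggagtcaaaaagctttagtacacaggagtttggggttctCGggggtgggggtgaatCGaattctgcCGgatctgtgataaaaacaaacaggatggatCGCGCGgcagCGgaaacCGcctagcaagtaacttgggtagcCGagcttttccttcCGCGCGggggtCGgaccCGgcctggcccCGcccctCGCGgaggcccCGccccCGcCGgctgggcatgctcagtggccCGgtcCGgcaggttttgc
Fat1: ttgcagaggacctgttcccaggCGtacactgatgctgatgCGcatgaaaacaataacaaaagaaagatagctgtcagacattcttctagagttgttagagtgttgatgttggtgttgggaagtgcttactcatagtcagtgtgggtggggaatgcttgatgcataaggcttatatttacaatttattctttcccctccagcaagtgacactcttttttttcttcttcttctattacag
Trpc6: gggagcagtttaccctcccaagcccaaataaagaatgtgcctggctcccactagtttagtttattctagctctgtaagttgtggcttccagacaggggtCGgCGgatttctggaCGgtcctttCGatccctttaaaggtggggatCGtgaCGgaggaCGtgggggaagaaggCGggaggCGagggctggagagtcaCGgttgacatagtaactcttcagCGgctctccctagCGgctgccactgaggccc
All 8 members matched a RefSeq start, Magi2 with 2. The motif counted was CG, which reads the same on both strands, in the 250 bases before each start. Counts were 29 and 3 for the starts of Magi2, 31 for Cd2ap, 24 for Kirrel, 22 for Tjp1, 12 for Trpc6, 6 for Plce1, 5 for Nphs1 and 2 for Fat1. The median over 32841 starts was 6, and 6.78% of them had as many as the first start of Magi2, 14.8% as many as Tjp1, 33.5% as many as Trpc6, 55.6% as many as Nphs1 and 81.2% as many as Fat1. The 2 starts of Magi2 thus differed widely, and which start these cells use was not measured. The 250 bases counted for Nphs1 (chr7:30459808-30460057) and for Plce1 lie over annotated exons of their own genes. Those of the second start of Magi2 (chr5:19907268-19907517) lie inside its GENCODE span. As for Fat1, these 3 counts need not describe a promoter.

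To allow for podocyte RNA in other cells, whether free in the droplets or carried by mixed cells, a panel of 11 other podocyte genes (Clic3, Thsd7a, Rhpn1, Plekhh2, Sema3g, Ildr2, Rasl11a, Col4a3, Tdrd5, Npnt and Htra1) was measured in every class as a percent of its own podocyte-like level. The panel median was 1.40% and 1.12% in glomerular endothelial-like cells (here and below the library labelled female comes before the library labelled male), 1.56% and 1.81% in mesangial-like cells, 7.75% and 8.10% in parietal epithelial-like cells, and 14.7% and 10.8% in tubule-like cells. Single panel genes varied widely around these medians. In parietal epithelial-like cells they ran from 1.75% to 38.5% and 1.16% to 53.8%. In mesangial-like cells they ran from 0.383% to 51.0% and 0.991% to 63.3%. The ranges were 0.912% to 6.03% and 0.308% to 7.59% in glomerular endothelial-like cells. In tubule-like cells they were 11.2% to 23.6% and 7.60% to 29.9%. A member was counted as above the podocyte RNA level in a class when the lower bound of its level exceeded 2 times the panel median in both libraries. Of 32 member and class pairs, 11 were above it. In parietal epithelial-like cells 4 of 8 members were above it, against 93.7% of the 5899 genes at 20 CPM or more in podocyte-like cells. In mesangial-like cells 5 of 8 were, against 95.4%, in glomerular endothelial-like cells 2 of 8, against 93.7%, and in tubule-like cells none, against 85.7%. Nphs1, Magi2 and Plce1 were above it in none of the 4 classes. The background holds only genes at 20 CPM or more in podocyte-like cells, which leaves out Trpc6. On that basis 4 of 7 members were above the level in parietal epithelial-like, 4 of 7 in mesangial-like, 2 of 7 in glomerular endothelial-like and 0 of 7 in tubule-like cells, each share under its background.

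**Figure D2:**
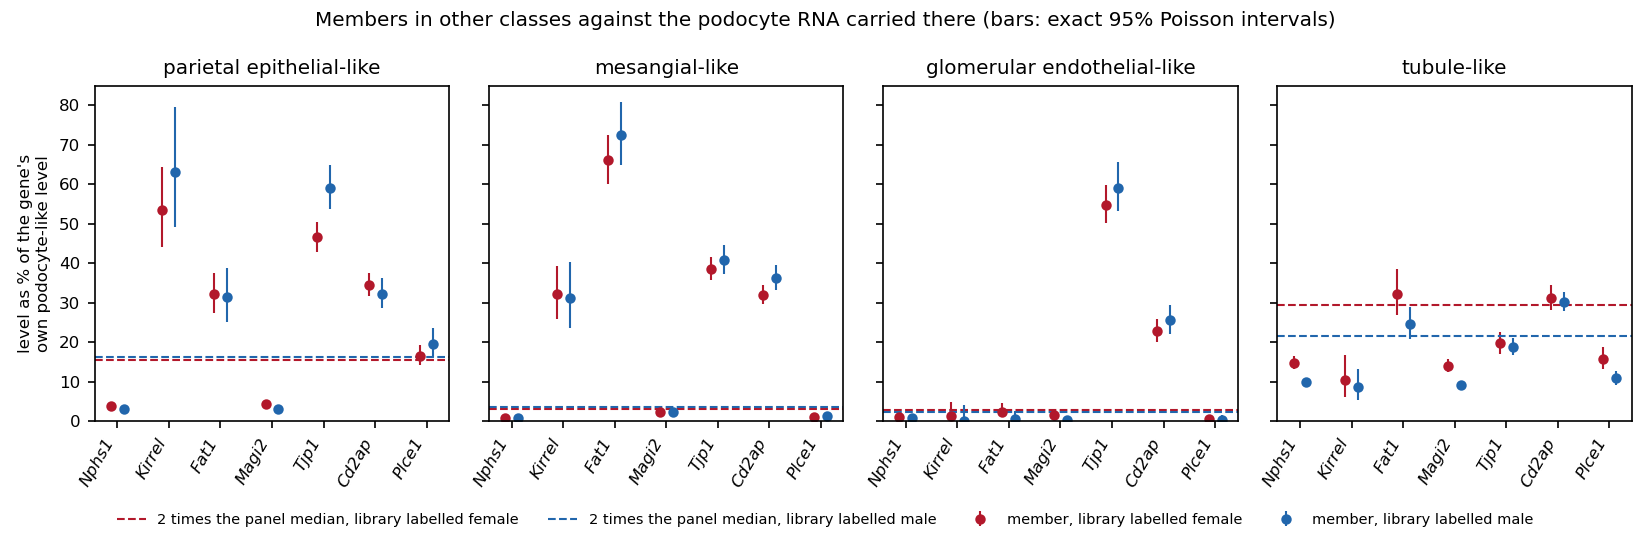
Level of 7 members in 4 classes as a percent of the gene's own podocyte-like level, with exact 95% Poisson intervals for the class count, for both libraries. Dashed lines mark 2 times the panel median of each library; Nphs1 and Magi2 lie under them in all 4 classes, and the intervals of Tjp1 and Cd2ap lie wholly above them in 3 classes in both libraries.

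The count depends on how podocyte RNA is gauged and on how the classes are drawn. With 2 times the upper quartile of the panel in place of its median, 5 pairs of 32 were above it: Trpc6, Tjp1 and Fat1 in mesangial-like cells, Cd2ap and Tjp1 in glomerular endothelial-like cells, and none in parietal epithelial-like cells. At a clustering resolution of 0.5 the parietal epithelial-like class took in other cells (336 in place of 138) and none of its 8 members was above the level, leaving 7 pairs. With the mitochondrial limit at 50% the tubule-like class held 496 cells in place of 166, and Cd2ap and Fat1 were then above the level there. Tubule-like cells had a median mitochondrial share of 14.96% and 14.2%, against 4.09% and 4.09% in podocyte-like cells.

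Nphs1 (ENSMUSG00000006649, chr7:30458315-30487223 in GENCODE M21 of GRCm38, plus strand) encodes nephrin, the adhesion molecule that forms the core of the junction. It was at 1518 CPM (1508 to 1529) and 1462 CPM (1450 to 1474) in podocyte-like cells. In mesangial-like cells it was at 11.02 and 12.7 CPM, in glomerular endothelial-like cells at 17.5 and 12.9 CPM, and in parietal epithelial-like cells at 58.8 and 46.2 CPM. These values were 0.466 and 0.478 of the amount that the panel predicts in mesangial-like cells, 0.822 and 0.789 in glomerular endothelial-like cells, and 0.49995 and 0.391 in parietal epithelial-like cells. The intervals of Nphs1, which cover its own count only, thus lay below the predicted amount in mesangial-like and parietal epithelial-like cells. In glomerular endothelial-like cells its interval (10.95 to 26.5 and 6.18 to 23.7 CPM) held the predicted 21.3 and 16.3 CPM. The prediction takes the panel median as exact, although single panel genes differed widely in these classes. After each cell was thinned to 3000 UMIs, 97.9% and 98.0% of podocyte-like cells held a Nphs1 UMI, against 5.88% and 3.64% of immune-like cells, which should lack it and had median depths of 8112 and 7624 UMIs. Those immune-like shares rest on 1 of 17 cells (0.149% to 28.7%) and 2 of 55 cells (0.443% to 12.5%). In parietal epithelial-like cells the share was 9.76% (4.31% to 18.3%) and 8.93% (2.96% to 19.6%), and without thinning it was 35.4% and 26.8%.

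Among the other 6 named classes the highest Nphs1 levels were 227.5 and 146 CPM in smooth muscle or renin-like cells, where the panel predicts 284 and 147 CPM, and 226 and 145 CPM in tubule-like cells, where it predicts 224 and 158 CPM. Nearly all of the latter came from thick ascending limb-like cells, at 281 and 182 CPM with a panel median of 17.0% and 13.4%, while proximal tubule-like cells were at 34.9 and 34.5 CPM with 4.72% and 3.08%. A few cells held much of them. In tubule-like cells the tenth of cells richest in panel UMIs held 58.3% and 81.8% of the thinned Nphs1 UMIs, and in smooth muscle or renin-like cells 75.0% and 90.9%. Without those cells Nphs1 was at 143 and 44.3 CPM in tubule-like cells and at 37.4 and 7.92 CPM in smooth muscle or renin-like cells.

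Kirrel (ENSMUSG00000041734, chr3:87078593-87174747, minus strand) encodes NEPH1, an immunoglobulin-family protein that binds nephrin across the gap. Its level was 117 CPM (114 to 120) and 116 CPM (112 to 119) in podocyte-like cells, 62.7 and 73.0 CPM in parietal epithelial-like cells, 60.8 and 59.2 CPM in smooth muscle or renin-like cells, and 37.6 and 36.1 CPM in mesangial-like cells. The podocyte-like level was 1.87 times (1.55 to 2.27) and 1.59 times (1.26 to 2.04) the parietal epithelial-like level. Kirrel was 6.92 and 7.78 times the amount predicted by the panel in parietal epithelial-like cells and 20.6 and 17.2 times in mesangial-like cells. It was next to absent from endothelial and immune-like cells, with 2 and 0 UMIs in glomerular endothelial-like cells and none in immune-like cells. Thinned detection was 28.6% and 28.4% in podocyte-like, 17.1% (14 of 82 cells) and 14 of 56 cells in parietal epithelial-like, and 8.60% and 11.4% in mesangial-like cells, with none in immune-like cells. Without thinning it was 70.5% and 66.6%, 61.0% and 64.3%, and 29.0% and 27.5% in these 3 classes.

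Fat1 (ENSMUSG00000070047, chr8:44935447-45052257, plus strand) encodes a very large cadherin of the junction that also organises actin in other cells. It reached 272 CPM (268 to 277) and 285 CPM (279 to 290) in podocyte-like cells, 180.0 and 206 CPM in mesangial-like cells, 182 and 160 CPM in smooth muscle or renin-like cells, and 87.7 and 89.4 CPM in parietal epithelial-like cells. Mesangial-like cells thus held 66.1% and 72.6% of the podocyte-like level, 42.4 and 40.0 times the amount predicted by the panel. The neighbouring levels of mesangial-like and smooth muscle or renin-like cells overlapped in their intervals in both libraries. In glomerular endothelial-like cells Fat1 had 8 and 1 UMIs and a thinned detection of 0% and 0.990%, against 54.4% and 56.5% in podocyte-like and 39.8% and 49.1% in mesangial-like cells (91.8% and 90.6%, and 71.9% and 72.5%, without thinning) and none in immune-like cells. In parietal epithelial-like cells Fat1 was 4.15 and 3.88 times the predicted amount, and it no longer passed there with the mitochondrial limit at 10% or on sums of thinned cells. Of the 3 adhesion molecules, Nphs1 passed the podocyte RNA level in no other class tested, while Kirrel and Fat1 passed it in parietal epithelial-like and mesangial-like cells and not in glomerular endothelial-like cells.

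Magi2 (ENSMUSG00000040003, chr5:19227036-20704792, plus strand) encodes a scaffold with several protein-binding domains that holds the tail of nephrin. It was at 1405 CPM (1395 to 1415) and 1482 CPM (1470 to 1494) in podocyte-like cells and at 33.1 and 34.8 CPM in mesangial-like, 21.4 and 3.87 CPM in glomerular endothelial-like, and 60.5 and 45.2 CPM in parietal epithelial-like cells. The ratio to the amount predicted by the panel ran from 0.233 to 1.51 over these classes. Thinned detection was 97.3% and 98.2% in podocyte-like cells and 5.88% and 3.64% in immune-like cells, and without thinning 99.95% and 99.9% against 17.6% and 3.64%. The immune-like shares are 1 of 17 and 2 of 55 cells when thinned, and 3 of 17 and 2 of 55 cells without thinning. In smooth muscle or renin-like cells Magi2 was at 331 and 206 CPM, and at 80.6 and 61.4 CPM without the tenth of cells richest in panel UMIs. The latter values were 5.73% and 4.14% of its podocyte-like level, where the panel median was 3.85% and 0.777%. Nphs1 was there at 2.46% and 0.542% of its own. This class was not among those tested against the podocyte RNA level. The class profile of Magi2 was close to that of Nphs1, with r = 0.97 across the 14 class and library sums. These sums share libraries and the podocyte RNA in them, and r is a description.

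Tjp1 (ENSMUSG00000030516, chr7:65296165-65527781, minus strand) encodes ZO-1, which ties junction proteins to actin in most epithelia and in endothelium. Podocyte-like cells had 731 CPM (723 to 738) and 753 CPM (745 to 762). Glomerular endothelial-like cells had 401 CPM (367 to 438) and 446 CPM (400.3 to 496), which is 54.9% and 59.2% of that level and 39.2 and 53.0 times the amount predicted by the panel. Parietal epithelial-like cells had 340.2 and 446 CPM and mesangial-like cells 282 and 308 CPM. Immune-like cells had 2 and 4 UMIs. Thinned detection was 85.2% and 87.7% in podocyte-like and 73.4% and 72.3% in glomerular endothelial-like cells, whose median depths before thinning were 10724 and 9712 against 7932 and 6417 UMIs. It was 0% and 1.82% in immune-like cells, and without thinning 99.2% and 98.8% in podocyte-like and 95.2% and 92.1% in glomerular endothelial-like cells. Tjp1 and Magi2, both scaffolds, thus differed in reach among the 4 classes tested. Tjp1 was above the podocyte RNA level in 3 of them and Magi2 in none.

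Cd2ap (ENSMUSG00000061665, chr17:42792951-42876665, minus strand) encodes an adaptor that links nephrin to actin and to survival signalling and was named for its binding to a T cell surface protein. It was at 897 CPM (889 to 905) and 923 CPM (914 to 933) in podocyte-like cells. Other classes had lower levels, at 310.2 and 298 CPM in parietal epithelial-like, 288 and 336 CPM in mesangial-like, 280.2 and 279 CPM in tubule-like (327 and 350 CPM in thick ascending limb-like, 121 and 72.7 CPM in proximal tubule-like), 257 and 215 CPM in smooth muscle or renin-like, and 205 and 236 CPM in glomerular endothelial-like cells. Cd2ap was thus detected in every class, and the excess of podocyte-like cells over the next class was 2.89-fold (2.66 to 3.15) and 2.75-fold (2.52 to 3.002). Immune-like cells had 79.0 and 120.1 CPM and a thinned detection of 29.4% and 32.7%, against 91.8% and 92.3% in podocyte-like cells. In tubule-like cells Cd2ap was 2.12 and 2.80 times the amount predicted by the panel. Its lower bound passed 2 times in the library labelled male but not in the library labelled female. Without the tenth of cells richest in panel UMIs it was at 28.9% and 25.7% of its podocyte-like level there. The panel median was then 10.9% and 3.88%, and Cd2ap passed. It also passed once the 5% of cells scored highest by Scrublet were dropped, and against the panel median itself. It did not pass on sums of thinned cells, at resolutions of 0.5 and 2.0 or at 2 times the panel upper quartile.

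Plce1 (ENSMUSG00000024998, chr19:38481109-38785030, plus strand) encodes phospholipase C epsilon, which cleaves a membrane lipid into messengers that release calcium. It was at 587 CPM (580.3 to 594) and 604 CPM (596 to 611) in podocyte-like cells. In mesangial-like cells it had 6.94 and 7.60 CPM and in glomerular endothelial-like cells 3.18 and 2.58 CPM, all below the amount predicted by the panel. These rest on 17 and 12 and on 4 and 2 UMIs. The intervals in mesangial-like cells (4.04 to 11.1 and 3.93 to 13.3 CPM) held the predicted 9.15 and 10.95 CPM. In glomerular endothelial-like cells the interval held the predicted amount in the library labelled male, and in the library labelled female it ended at 8.13 against 8.22 CPM. Parietal epithelial-like cells had 97.7 and 118 CPM, 2.15 and 2.42 times the predicted amount, with lower bounds that did not reach 2 times. Without the 10% of cells richest in panel UMIs the parietal epithelial-like level was 94.5 and 114 CPM while the panel median fell to 5.20% and 4.97%, and Plce1 then passed. Smooth muscle or renin-like cells were the highest other class, with 234 and 125 CPM, 2.13 and 2.06 times the predicted amount. Without their panel-rich cells this level was 129 and 91.1 CPM, with a panel median of 3.85% and 0.777%. Thinned detection in parietal epithelial-like cells was 26.8% and 28.6% (73.2% and 71.4% without thinning), against 0% and 1.82% in immune-like and 81.0% and 82.1% in podocyte-like cells.

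Trpc6 (ENSMUSG00000031997, chr9:8544142-8680741, plus strand) encodes a cation channel that lets calcium into cells and is also known from vascular smooth muscle. In podocyte-like cells it had 2 UMIs among 4135 cells and 5 UMIs among 3717 cells, or 0.0394 CPM (0.00477 to 0.142) and 0.125 CPM (0.0407 to 0.292). In mesangial-like cells it had 110 and 70 UMIs, or 44.9 CPM (36.9 to 54.1) and 44.3 CPM (34.6 to 56.0). In smooth muscle or renin-like cells it had 32 and 31 UMIs, or 72.1 CPM (49.3 to 102) and 51.0 CPM (34.6 to 72.4). Podocyte-like cells thus held 1.24% and 4.67% of the Trpc6 UMIs of all kept cells, against 96.1% and 96.7% of those of Nphs1. The ratio of the mesangial-like to the podocyte-like level had an interval of 308 to 9527 in the library labelled female and of 145 to 1124 in the library labelled male. The intervals of mesangial-like and smooth muscle or renin-like cells overlapped in both libraries.

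No Trpc6 UMI was found in parietal epithelial-like or glomerular endothelial-like cells of either library. The intervals reach up to 2.05 and 3.79 CPM in the former and 2.93 and 4.76 CPM in the latter. Thinned detection was 11.8% and 13.2% in mesangial-like, 20.4% and 18.1% in smooth muscle or renin-like and 0.0484% and 0.0538% in podocyte-like cells, with none in immune-like cells. Without thinning it was 34.4% and 29.3%, 42.9% and 33.3%, and 0.0484% and 0.135%. These are 3' counts assigned to annotated genes, so transcripts whose ends lie outside the annotation would not be seen. In the counts 5 members overlap an annotated gene on the other strand (Nphs1 with Nphs1os, Kirrel with Gm37855, Trpc6 with Gm32014, Plce1 with Gm28991 and Fat1 with Gm2366), and the sources used here do not state the strand setting of the counting.

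Most members were also present in 2 of the unnamed clusters. A cluster of 109 and 90 cells led by Tagln, Lsp1 and Cst12, with a panel median of 54.6% and 53.6%, had Tjp1 at 95.1% and 98.1% of the podocyte-like level, Kirrel at 91.0% and 85.7%, Nphs1 at 62.6% and 60.6%, Magi2 at 54.8% and 52.1%, and Fat1 at 50.03% and 50.5%. The interval of Kirrel held the podocyte-like level in both libraries, and so did that of Tjp1. The cluster held no Trpc6 UMI. A cluster of 48 and 23 cells that carried podocyte, mesangial and endothelial markers together had medians of 17691 and 15904 UMIs and a panel median of 65.8% and 73.8%. There Trpc6 had 15 UMIs in the library labelled female, or 15.3 CPM (8.57 to 25.2), and 1 UMI in the library labelled male. The third, led by endothelial genes, had 62 and 57 cells, with Tjp1 at 48.7% and 51.7% of the podocyte-like level and Nphs1 at 1.08% and 4.28%.

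Between the libraries, podocyte-like cells had nearly the same level of each measured member. The ratio, female over male as labelled, was 1.04 (1.03 to 1.05) for Nphs1, 1.01 (0.972 to 1.05) for Kirrel, 0.972 (0.959 to 0.985) for Cd2ap, 0.948 (0.938 to 0.959) for Magi2, 0.970 (0.955 to 0.985) for Tjp1, 0.972 (0.956 to 0.989) for Plce1 and 0.957 (0.934 to 0.982) for Fat1. None of 7 members passed 1.5-fold, against 1.59% of the 6166 genes at 20 CPM or more. The median log2 ratio was -0.04 over the members and -0.02 over all genes, whose 5th and 95th percentiles were -0.23 and 0.23. The narrow intervals reflect counting error only, and how far 2 mice of 1 group would differ cannot be told from these data. Trpc6, at 2 against 5 UMIs, had a ratio of 0.315 (0.0300 to 1.92).

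Within podocyte-like cells the spread of the members beyond counting noise was small relative to their squared means. Spread was measured on cells thinned to 3000 UMIs as the excess squared coefficient of variation, which is the variance minus the mean, divided by the squared mean, and is 0 for counting noise alone. Nphs1, at a mean of 4.53 and 4.38 UMIs a thinned cell, had 0.0676 and 0.0462, Magi2 0.0772 and 0.0724, Cd2ap 0.0514 and 0.0572, and Plce1 0.0877 and 0.0655. Fat1 had the lowest values, 0.0444 and 0.0303. The median over 6375 measured genes was 0.106 and 0.113. Their median mean was 0.164 and 0.167 UMIs a thinned cell, lower than that of any measured member, so the genes compared were not matched for mean. Tjp1 (0.107 and 0.0528) and Kirrel (0.0824 and 0.147) each passed the median in 1 library. None of the 7 measured members was above the median in both libraries, against 34.1% of all genes. As a coefficient of variation, the excess of Nphs1 was 0.260 and 0.215 of its mean. The comparison depends on the measure. By the variance over the mean, which is 1 for counting noise alone, Nphs1 had 1.31 and 1.20 and Magi2 1.33 and 1.33. The median gene had 1.02 and 1.03. By this measure only Fat1 in the library labelled male, at 1.026 against 1.027, was under the median gene.

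**Figure D3:**
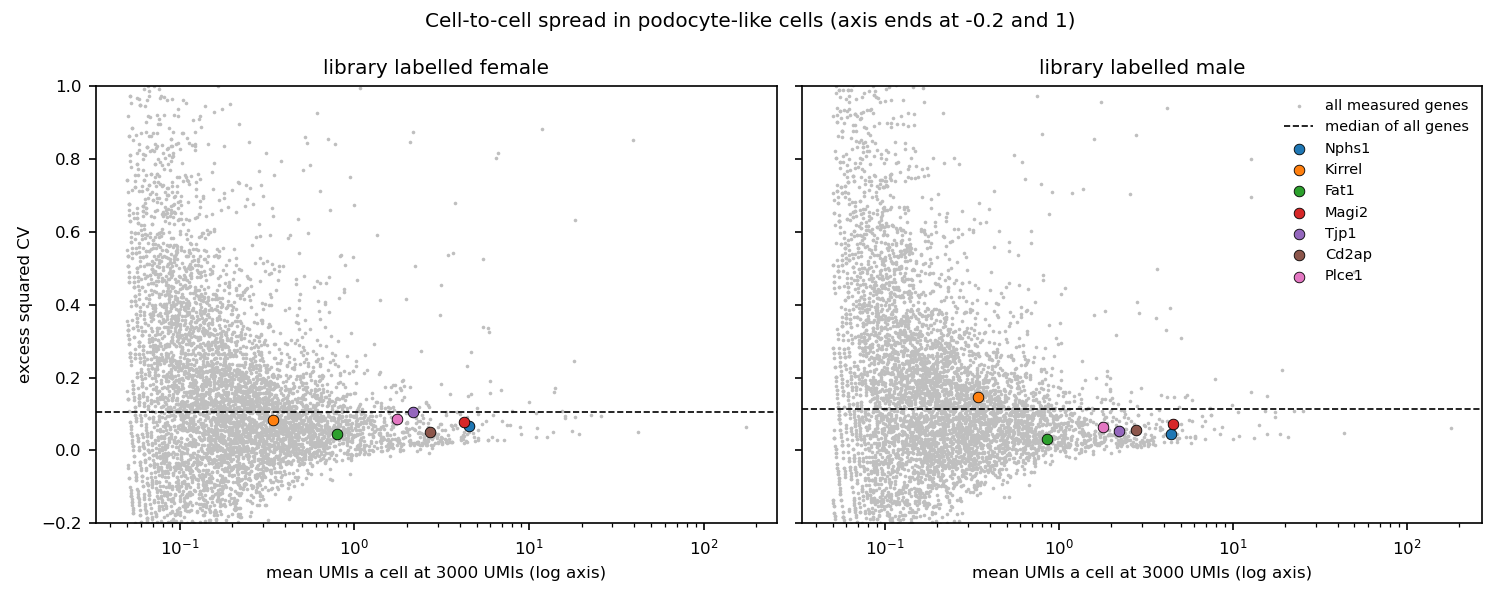
Excess squared coefficient of variation against the mean UMIs a cell (log axis) in podocyte-like cells thinned to 3000 UMIs, for the 6375 measured genes (grey; genes beyond the axis ends are not drawn) and 7 members, 1 panel a library. The dashed line is the median of all genes, and only Kirrel and Tjp1 touch or pass it, each in 1 library.

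Cell by cell, podocyte-like cells detected a median of 5 members at 3000 UMIs in both libraries. At least 5 members were detected in 83.1% and 85.5% of podocyte-like cells, 11.3% and 7.69% of tubule-like cells, 10.2% and 6.94% of smooth muscle or renin-like cells, 2.44% and 0% of parietal epithelial-like cells, 0.452% and 1.20% of mesangial-like cells, and 0% of glomerular endothelial-like cells. Correlations between levels in the same cell were low. Over the 21 pairs without Trpc6, the median Pearson r of log counts was 0.029 and 0.026. Over all pairs of the 2315 genes found in 20% or more of the thinned cells it was 0.0007 and 0.0003. The members and these genes were not matched for level. The highest pairs were Nphs1 with Magi2 at 0.108 and 0.061 and Tjp1 with Plce1 at 0.052 and 0.063. None of the 21 pairs reached 0.1 in both libraries, near the share of 0.0782% over 2678455 gene pairs. In counts this sparse a weak correlation is no finding.

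Across the 6 podocyte-like clusters, Magi2 and Nphs1 were lower where early response transcripts were higher. These transcripts, such as Fos, Jun and Egr1, are made soon after a stimulus, including the handling of tissue. Cluster 2 had the most of the 17 listed early transcripts, 53919 and 50891 CPM summed, and cluster 4 the least, 2061 and 2090 CPM. Magi2 was at 1154.5 and 1183 CPM in cluster 2 and at 1703 and 1713 CPM in cluster 4, a 1.47-fold and 1.45-fold difference. Nphs1 was at 1382 and 1294 CPM in cluster 2 and at 1776 and 1600.2 CPM in cluster 4, a 1.28-fold and 1.24-fold difference. For both genes cluster 2 was the lowest of the 6 and cluster 4 the highest in each library. Over cells, r with the summed early transcripts was -0.217 and -0.195 for Magi2 and -0.162 and -0.102 for Nphs1, and between -0.017 and 0.071 for the other members measured. Tjp1 (782 and 843 CPM) and Fat1 (289 and 312 CPM) had their highest levels in cluster 2, and the 5 members other than Magi2, Nphs1 and Trpc6 differed by at most 1.18-fold between their lowest and highest cluster.

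**Figure D4:**
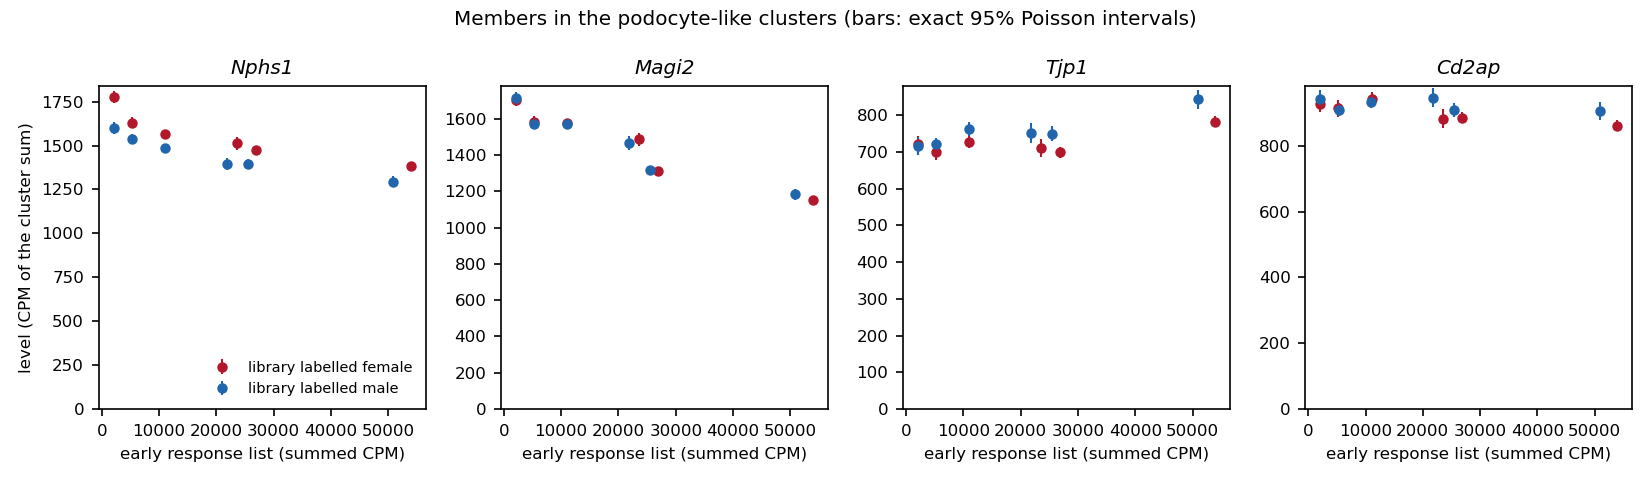
Level of 4 members (CPM of the cluster sum) in the 6 podocyte-like clusters against the summed level of the 17 early response transcripts (CPM), with exact 95% Poisson intervals, for both libraries. Nphs1 and Magi2 are lowest in the cluster with the most early transcripts, and Cd2ap is nearly level.

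Cluster 2 made up 21.4% of the kept cells of the library labelled female, against 8.89% of the library labelled male. With each podocyte-like cluster weighted equally, the log2 ratio of the libraries was -0.001 for Magi2 in place of -0.08, and 0.10 for Nphs1 in place of 0.06. Cd2ap and Plce1 differed by at most 1.09-fold between clusters. Median depth was 11988 and 11302 UMIs in cluster 2 and 8985 and 7819.5 in cluster 4, and the median share of mitochondrial UMIs 3.91% and 3.59% against 4.997% and 4.89%. Tjp1 had r = 0.103 and 0.129 with log depth over cells, and Magi2 -0.046 and -0.078. The part of depth, mitochondrial share and early transcripts in the difference was not tested.

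Genes with the class profile most like each member were named by Pearson r of log2(CPM + 10) over the 14 class and library sums, among 5661 genes at 20 CPM or more in podocyte-like cells. For Nphs1 they were Tmem150c (0.99), Rhpn1 (0.99) and Clic3 (0.99), the last 2 of which are in the panel. Rhpn1 and Sh3bgrl2 were among the 3 for Magi2, at 0.99 and 0.98. For Plce1 they were Enpep (0.99), Fgfr1 (0.98) and Kank1 (0.97), for Fat1 Hoxc6 (0.98), Bmpr1a (0.97) and Hoxa10 (0.97), for Kirrel Hoxc4, Sox5 and Gpx8 (all 0.96), for Cd2ap Osbpl9, Man1a2 and Krcc1 (all 0.96), and for Tjp1 Laptm4a (0.99), Ccser2 (0.97) and Rab14 (0.96). For Trpc6, which podocyte-like cells almost lack, Rab6b (0.95), Atp2a2 (0.94) and Atp1b2 (0.93) came closest. Genes under 20 CPM in podocyte-like cells, as Trpc6 itself is, were not searched, so closer profiles may exist. Over single podocyte-like cells the closest gene was Malat1, a nuclear RNA, for Magi2 (0.1998 and 0.202), Nphs1 (0.114 and 0.115) and Cd2ap (0.065 and 0.049), and the collagen IV genes Col4a4 and Col4a3 were among the 3 closest to Tjp1 (0.115 and 0.101, 0.101 and 0.098). Col4a3 was also closest to Plce1 (0.087 and 0.094), Myh9, a non-muscle myosin, to Kirrel (0.061 and 0.047), and Sema3g, a panel gene, to Fat1 (0.057 and 0.057). No such gene is given for Trpc6, which had 2 and 2 UMIs in the thinned podocyte-like cells.

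The other genes of the slit diaphragm did not share the members' pattern as a list. Of 51 listed, 47 reached 20 CPM in a class, and 15 of these, or 31.9%, were highest in podocyte-like cells in both libraries, against the 11.8% of all genes. Their median log2 ratio of podocyte-like over the highest other class was -0.61. Of these 15, 3 (Ddn, Ptpro and Synpo) are markers that named the podocyte-like cells, and without the markers the count was 12 of 44. None of 39 genes at 20 CPM or more in podocyte-like cells passed 1.5-fold between the libraries, near the background of 1.59%.

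**Figure D5:**
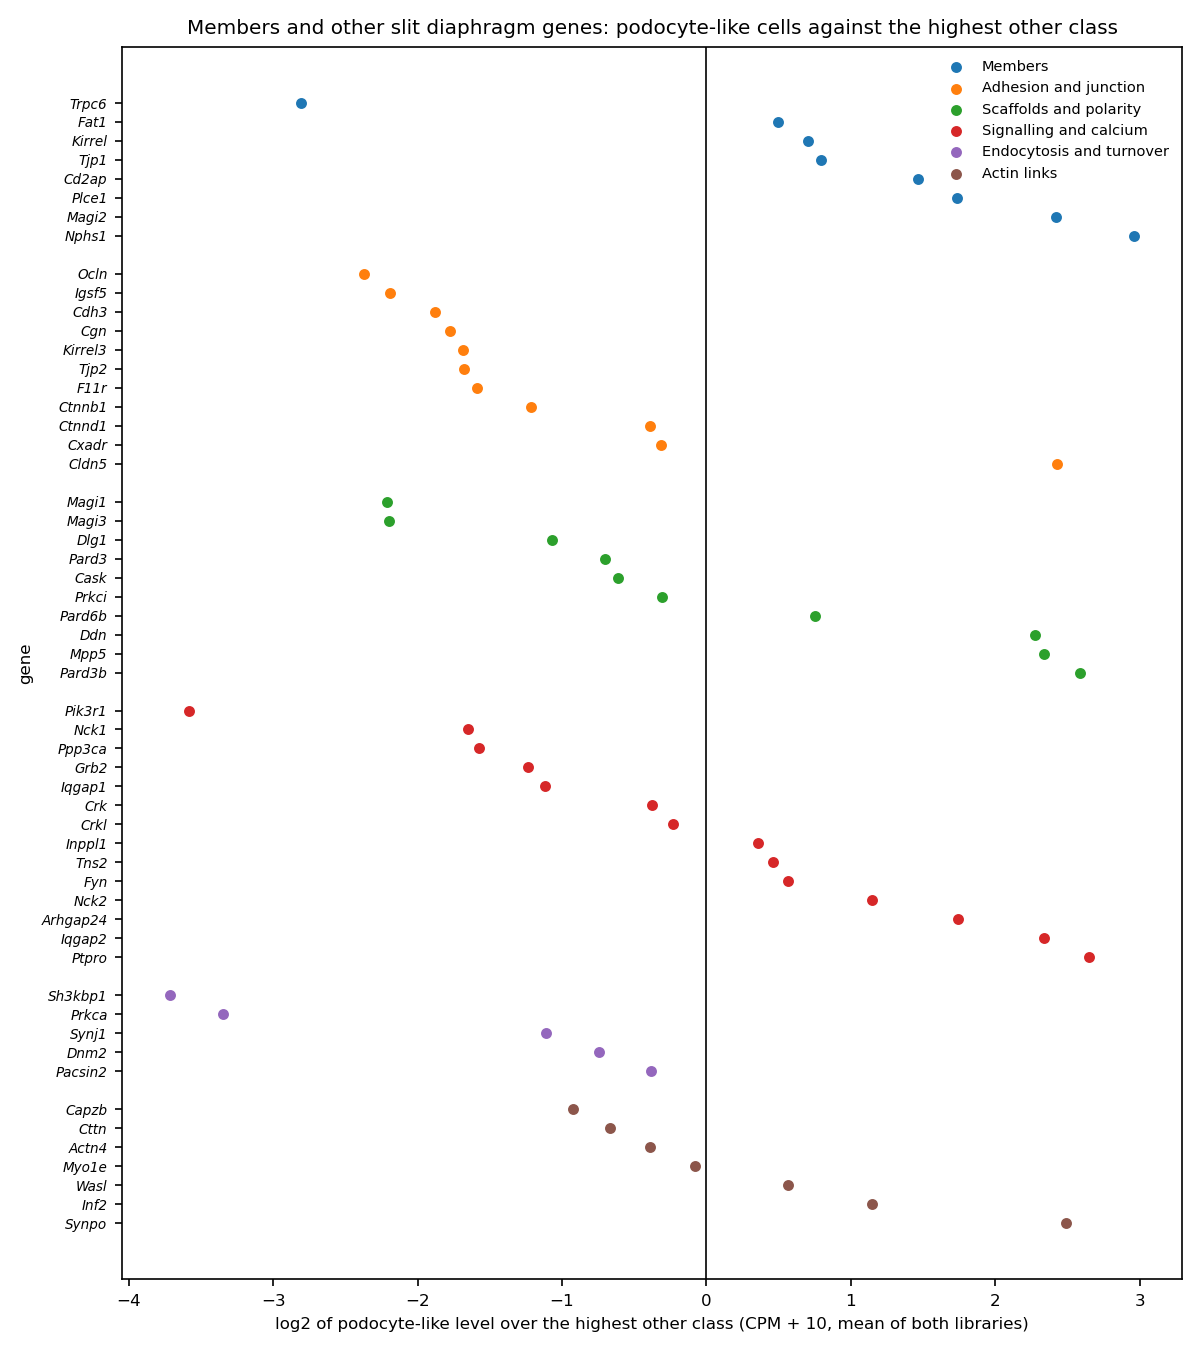
Log2 ratio of the podocyte-like level over the highest other class (CPM + 10, mean of both libraries) for the 8 members and the 47 measured genes of the fixed list, by role. Points right of 0 are higher in podocyte-like cells: 7 members lie there and Trpc6 does not.

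Of 11 measured adhesion and junction genes, 1 was highest in podocyte-like cells: Cldn5, a claudin of tight junctions, at 1237 and 1168 CPM against 216 CPM in smooth muscle or renin-like and 214 CPM in glomerular endothelial-like cells, the highest other class of each library. Cxadr, a junctional receptor, was at 115 and 119 CPM against 150 and 146 CPM in parietal epithelial-like cells. Ocln, the tight junction protein occludin, had 0.0394 and 0.0501 CPM in podocyte-like cells and 47.3 and 37.0 CPM in tubule-like cells, and Igsf5 had 5.36 and 6.31 CPM against 67.4 CPM in tubule-like and 57.5 CPM in parietal epithelial-like cells. Kirrel2, a relative of Kirrel whose start lies beside that of Nphs1, was at 9.68 and 9.72 CPM in podocyte-like cells and under 20 CPM in every class. It was picked after its values were seen.

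Of 10 scaffold and polarity genes 4 were highest in podocyte-like cells. Pard3b, a polarity protein, was at 826 and 808 CPM against 137 and 119 CPM in parietal epithelial-like cells, and Mpp5, which encodes the polarity scaffold PALS1, at 911 and 936 CPM against 199 and 153 CPM in tubule-like cells. The relatives of Magi2 went the other way: Magi1 had 2.07 and 3.83 CPM in podocyte-like and 50.5 and 49.3 CPM in parietal epithelial-like cells, and Magi3 15.6 and 14.2 against 92.1 and 117 CPM.

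Of 14 signalling and calcium genes 7 were highest in podocyte-like cells, led by the phosphatase Ptpro (936 and 956 CPM, against 167 CPM in smooth muscle or renin-like and 121 CPM in tubule-like cells) and Iqgap2 (1075 and 1042 CPM, against 234 CPM in smooth muscle or renin-like and 173 CPM in immune-like cells). Pik3r1, a regulatory subunit of phosphoinositide 3-kinase, was at 64.6 and 62.6 CPM in podocyte-like cells and 807 and 942 CPM in mesangial-like cells. Nck1, an adaptor that binds phosphorylated nephrin, was at 41.1 and 43.0 CPM against 149 and 157 CPM in glomerular endothelial-like cells, while its relative Nck2, named after its values were seen, was at 94.1 and 84.9 CPM against 35.5 and 34.2 CPM in mesangial-like cells.

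None of 5 endocytosis genes was highest in podocyte-like cells. Sh3kbp1, the close relative of Cd2ap, had 1.81 and 2.10 CPM there and 130 and 166 CPM in immune-like cells, and the kinase Prkca had 40.7 and 43.6 CPM against 418 and 646 CPM in mesangial-like cells. Pacsin2 (136 and 125 CPM, against 187 and 161 CPM in smooth muscle or renin-like cells) and the dynamin Dnm2 (85.5 and 81.0 CPM, against 146 and 146 CPM in glomerular endothelial-like cells) were closer to even. Of 7 actin genes 3 were highest in podocyte-like cells, among them Synpo (1603 and 1632 CPM) and the formin Inf2 (95.0 and 81.9 CPM, against 38.1 and 30.9 CPM in glomerular endothelial-like cells). Cttn and Capzb were lower than in the highest other class, at 56.6 and 52.8 CPM against 88.2 and 97.6 CPM in parietal epithelial-like cells and at 158 and 177 CPM against 327 and 325 CPM in immune-like cells.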

How the data were processed

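Single cells of mouse glomeruli were profiled by 10x 3' libraries, 1 labelled female and 1 labelled male. The deposited values are raw UMI counts per gene and barcode, per the file headers, made by the authors with Cell Ranger 6.1.2 and STAR 2.7.5a on mm10, per the submitters' processing notes, which give no roles. The sources used here do not state how barcodes were called cells, which annotation was used or the strand. The libraries held 5233 and 4974 barcodes with 67648465 and 57841860 UMIs. Cells with over 20% mitochondrial UMIs (5.41% and 10.1% of barcodes) or under 500 genes were left out. The titles name a sex that the sex-linked transcripts contradict, and each group has 1 library, so no test was made.

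Counts were scaled to 10000 UMIs a cell, put on a log scale and clustered (scanpy 1.11.5, scikit-learn 1.9.0, leidenalg 0.10.2, igraph 0.11.9) on 2000 variable genes without the members, 30 components, 20 neighbours and resolution 1.0. Clusters were named by marker lists, with at least 3 markers detected, and stayed unnamed where markers of another class outnumbered those of their own among the 10 leading genes. That rule, and the choice to leave haemoglobin genes out of the leading genes, were made once the clusters had been seen. Scrublet (expected rate 4%) called 12 and 4 cells, 0.244% and 0.0901%, which is under 0.5%, so it has not worked, and doublets were kept. Intervals are exact at 95% (Poisson, Clopper-Pearson and conditional binomial) and cover counting error only. For the barcodes left out by the filters, a count of 0 was taken to allow up to 3 counts. Ratios of lists used a prior of 10 CPM. All 8 members are named with their values. Of the other slit diaphragm genes the rule names the 2 highest and the 2 lowest of each role by the log2 ratio of podocyte-like over the highest other class, and for likeness the 3 genes with the highest r. The members and lists were chosen with earlier results of these data known. The code was tested on simulated data. Alternatives varied the cell filters, clustering, panel threshold, level limit, thinning, doublet removal and correlation measure. Positions are from GENCODE M21 and the bases before the starts from RefSeq, both on GRCm38. Barcodes left out by the filters entered no comparison.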

Additional observations from a re-analysis of the deposited data

Results flagged for a closer look

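The filters left out 324 barcodes of the library labelled female, against 532 of the library labelled male, and these entered no comparison. Members were counted in them above what a count of 0 allows (0.496 and 0.325 CPM). In the library labelled female Nphs1 was at 63.6 CPM, Magi2 at 71.2 CPM, Kirrel at 6.45 CPM and Fat1 at 33.1 CPM, with Tjp1 at 44.6 CPM, Cd2ap at 104 CPM and Plce1 at 30.6 CPM. In the library labelled male Nphs1 was at 54.1 CPM, Magi2 at 53.1 CPM, Kirrel at 3.79 CPM and Fat1 at 26.4 CPM, with Tjp1 at 45.3 CPM, Cd2ap at 120 CPM and Plce1 at 20.7 CPM. As a percent of each gene's podocyte-like level these values ran from 3.27% for Kirrel to 13.0% for Cd2ap, both in the library labelled male. Trpc6 had 1 and 3 UMIs there, at or under that limit.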

How the results depend on the processing

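Of 6 counts of members or pairs, recomputed under up to 18 settings each, 66 of 68 values stayed within 1.5 times the reported count. The other 2 were the pairs above the podocyte RNA level, 7 in place of 11 at a clustering resolution of 0.5 and 5 at 2 times the panel upper quartile. In the first the parietal epithelial-like class held 336 cells in place of 138; in the second the threshold itself is stricter. With the mitochondrial limit at 10% no tubule-like class was left, so that setting gave no count of pairs in it. Of 421 recomputed values of single members 381 stayed within their interval and 40 moved. The largest move was 3.02 on the log2 scale, for Nphs1 in parietal epithelial-like cells at a resolution of 0.5. A change of direction was looked for only in values 1.5-fold or more from even, and none was found. The ratios between libraries lie under that limit, so a change in their sign was not looked for. Naming with haemoglobin genes counted, or by marker score alone, was tried after seeing the data and gave 5081 and 8122 podocyte-like cells in place of 7852. No paired analysis was possible because each group has 1 library. Depth limits the small classes, such as immune-like and proximal tubule-like cells, to wide intervals.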
